A study of Homo sapiens with 8 samples.

Results

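The genes described are 10 components of the extracellular part of WNT signalling, taken by symbol: the ligands *WNT5A*, *WNT5B*, *WNT7A*, *WNT7B* and *WNT10A*, the secreted antagonists *DKK1*, *DKK3* and *SFRP1*, and the receptors *FZD2* and *FZD7*. All 10 were found among the 33791 genes with counts, and all 10 were among the 14653 genes with enough counts to be tested. RNA-seq was carried out on PNT2, an immortalised line of human prostate epithelium kept in serum-containing medium, with 2 libraries (replicates A and B) in each of 4 groups. WT is the line with neither loss, the ERF KD cells carry a short hairpin RNA against *ERF*, the CIC KO cells carry Cas9 and a guide RNA against *CIC*, and the CIC-ERF codeletion cells carry both, so that this name stands for a knockdown plus a knockout and not for a deleted chromosome segment. The study's methods name more than 1 hairpin and guide under puromycin and blasticidin selection. For the PNT2 lines with both losses they name only 1 of the hairpins, shERFA1, joined with either guide. Beyond this, which hairpin or guide a replicate letter stands for, whether a line is 1 clone and whether WT cells carry control constructs are not given in the sources used here. The spread between replicates may therefore be technical, and the ERF KD and codeletion libraries may differ in hairpin.

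WNT ligands are secreted, lipid-modified glycoproteins that bind Frizzled receptors on the same or a neighbouring cell. With the co-receptors LRP5 or LRP6 they stop the destruction of beta-catenin, which then acts with TCF/LEF factors on target genes, whereas other ligand and receptor pairs steer cell polarity and movement without beta-catenin. Dickkopf and SFRP proteins are secreted brakes on this system. CIC and ERF are transcriptional repressors, CIC acting at octamers of the TGAATGAA type and ERF, an ETS factor, at sites with a GGAA core.

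The libraries held 19477473 to 25813157 estimated counts, of which 93.21% to 93.34% fell on the genes used. The check of the targeted genes went against the single-loss labels. *ERF* stood at 55.9 and 55.9 CPM (counts scaled to the normalised size of the library) in WT replicates A and B, at 81.2 and 77.8 CPM in the libraries labelled ERF KD, at 18.8 and 11.7 CPM in the libraries labelled CIC KO, and at 11.6 and 10.4 CPM in the codeletion. Low *ERF* mRNA was thus found under the CIC KO label but not under the ERF KD label, and the deposited file names of these 4 libraries carry the opposite letters. The study also describes immunoblots of both proteins in its PNT2 lines and quantitative PCR of *ERF* mRNA in parental and ERF KD cells. Neither was analysed here. Every direction given below for a single loss rests on the labels as deposited, and the groups are written as labelled ERF KD and labelled CIC KO. *CIC* mRNA, which a frameshift need not change, averaged 128.8 CPM in WT, 108.7 CPM in labelled ERF KD, 131.6 CPM in labelled CIC KO and 78.6 CPM in the codeletion.

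The libraries labelled ERF KD also stood apart from the other 6. They scored 72.03 and 75.1 on the first principal component of log2 CPM, which held 45.8% of the variance, against −31.3 to −18.6 for the others. The summed abundance of 14 epithelial markers was 2576 to 3125 TPM (relative abundance corrected for transcript length) in labelled ERF KD against 5483 to 5872 TPM in WT, and that of 14 mesenchymal and fibroblast markers was 1801 to 2179 against 883.7 to 1060 TPM. The higher mesenchymal sum rests on *VIM*, at 1284 and 1592 TPM in labelled ERF KD against 93.1 and 173.0 TPM in WT. *FN1* went the other way, from 661.5 and 766.2 TPM in WT to 332.6 and 392.4 TPM. In labelled ERF KD against WT, 11 of the 13 epithelial markers tested were lower, *CDH1* (E-cadherin) with a log2 difference of −4.41, while of 12 mesenchymal markers tested 6 were higher and 1, *FN1*, was lower. In labelled CIC KO the 2 lists spanned 5808 to 6531 and 926.4 to 1038 TPM, and in the codeletion 5603 to 6238 and 618.1 to 800.1 TPM. The luminal prostate list summed to 12.04 to 21.85 TPM over all libraries, with *KLK3* at 0 throughout, and the endothelial and blood list to 5.22 to 42.3 TPM. *LUM* was at 0 in every library. These values move with each result below that involves labelled ERF KD, and their part in those results was not tested. In bulk RNA, fewer cells that express a gene and less RNA per cell cannot be told apart.

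The members come in related pairs, and kallisto, which made the tables, divides reads that fit several transcripts. The stretches below are the longest runs of bases that each pair has in common, shown because they bear on how far the counts of the pair can be separated. Capitals mark the shared run and lower case 12 bases on each side, and all 6 stretches lie in coding sequence within a single exon (GENCODE release 29, GRCh38). They lie at chr3:13819139-13819192 (minus strand) for *WNT7A*, chr22:45923051-45923104 (minus) for *WNT7B*, chr3:55470133-55470191 (minus) for *WNT5A*, chr12:1646153-1646211 (plus) for *WNT5B*, chr17:44557776-44557868 (plus) for *FZD2* and chr2:202034765-202034857 (plus) for *FZD7*.
WNT7A: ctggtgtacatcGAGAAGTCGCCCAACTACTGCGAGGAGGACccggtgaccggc
WNT7B: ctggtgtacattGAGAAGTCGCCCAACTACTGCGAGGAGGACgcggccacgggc
WNT5A: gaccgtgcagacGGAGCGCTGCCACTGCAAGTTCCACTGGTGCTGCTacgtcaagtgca
WNT5B: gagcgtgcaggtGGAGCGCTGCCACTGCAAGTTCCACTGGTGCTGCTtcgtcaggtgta
FZD2: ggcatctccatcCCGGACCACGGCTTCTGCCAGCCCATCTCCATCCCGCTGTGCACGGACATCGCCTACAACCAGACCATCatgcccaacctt
FZD7: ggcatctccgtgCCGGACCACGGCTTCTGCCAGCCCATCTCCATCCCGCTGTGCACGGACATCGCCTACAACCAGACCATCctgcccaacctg

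The shared runs were 30 bases long for *WNT7A* and *WNT7B*, 35 bases for *WNT5A* and *WNT5B*, and 69 bases for *FZD2* and *FZD7*. Of the 45 pairs that the 10 genes form, 43 had no run of 31 bases in common. *WNT5A* and *WNT5B* shared 5 such runs, and *FZD2* and *FZD7* shared 73, out of 2082 in *FZD2* and 3829 in *FZD7*. How kallisto divided reads from these stretches was not tested. Among the members, *DKK1* alone has exonic bases in common with another gene, 212 bases with *PRKG1-AS1* on the opposite strand, whose reads cannot be told apart from those of *DKK1* unless the counting used strand, which is not given in the sources used here.

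RefSeq promoter windows (GRCh38.p14, 250 bases before to 50 after a start site) were at hand for 5 of the 10 genes, in 7 windows. They were searched on both strands for the CIC octamers TGAATGAA, TGAATAAA, TCAATGAA, TCAATAAA and TGAATGGA, for the TCF/LEF sites CTTTGAA and CTTTGAT, and for the ETS core GGAA. The 3 matches other than GGAA are shown, with the motif in capitals. The *WNT5A* stretch lies at chr3:55487509-55487534, where the motif starts 219 bases before the start site, and is also in exon 1 of the transcript WNT5A-201. The *WNT5B* stretch lies at chr12:1616992-1617017, 55 bases before the start site and within exon 1 of the non-coding transcript WNT5B-204, and reads TGAATGGA on the strand opposite to the gene. The *DKK1* stretch lies at chr10:52314177-52314202, 95 bases before the start site, within exon 1 of the antisense transcript PRKG1-AS1-204.
WNT5A: tctgtggtgTGAATGAActgggggca
WNT5B: ttccgctgtTCCATTCAttgcaacat
DKK1: ctcccagcgCTTTGAAatcccatccc

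Among all 35116 promoter windows, 1.65% held TGAATGAA, 1.03% TGAATGGA and 4.43% CTTTGAA. The other octamers, found in 0.718% to 1.3% of all windows, and CTTTGAT, found in 2.62%, were in no member window. GGAA was in all 7 member windows and in 95.5% of all windows, so that it does not set these genes apart. Each match is a run of letters and not a measured binding site.

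In WT cells the level per transcript length ran over a wide range. *DKK3* (100.3 ± 33.9 TPM, SD, n = 2) and *WNT5B* (90.6 ± 14.9 TPM) came first, and their libraries overlapped. They were followed by *SFRP1* (68.5 ± 0.638 TPM), and then by *DKK1* (58.1 ± 9.85 TPM) and *FZD2* (55.8 ± 4.76 TPM), which overlapped. *FZD7* (22.5 ± 2.86 TPM) and *WNT10A* (20.4 ± 2.75 TPM) overlapped as well. The other 3 ligands were the least abundant members, with *WNT7B* at 12.2 ± 1.46 TPM, *WNT7A* at 3.35 ± 0.526 TPM and *WNT5A* at 0.368 ± 0.244 TPM, each below the one before it in both libraries. The mRNA of each of the 3 secreted antagonists was thus above that of every member ligand other than *WNT5B* in both WT libraries.

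**Figure D1:**
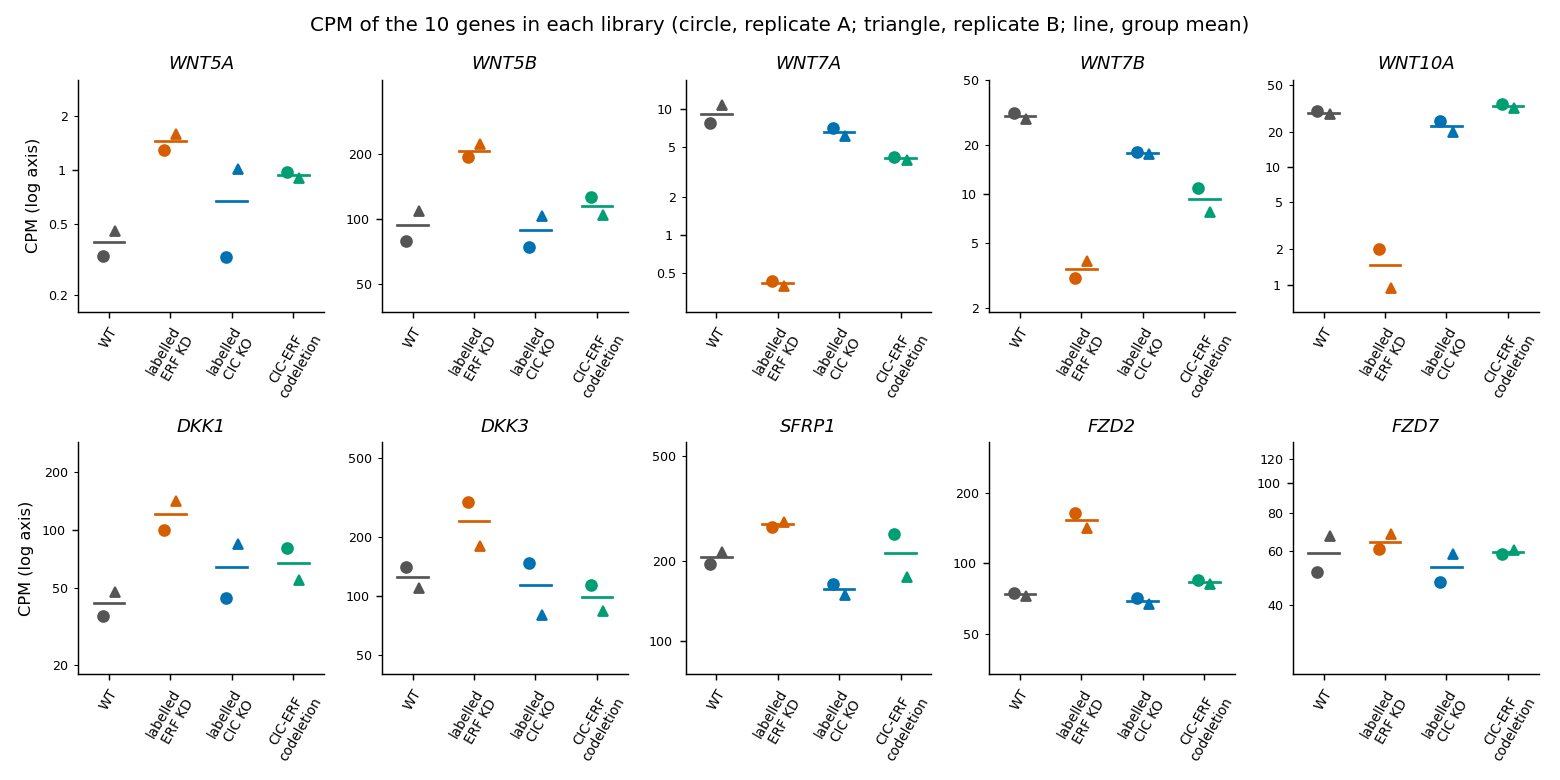
Each panel plots CPM of 1 gene on a log axis against the 4 groups, with a circle for replicate A, a triangle for replicate B and a line for the group mean. In the libraries labelled ERF KD, WNT7A lies at 0.432 and 0.397 CPM, WNT7B at 3.03 and 3.87 CPM and WNT10A at 2.02 and 0.944 CPM, below every other library, while WNT5A, WNT5B, DKK1, DKK3, SFRP1 and FZD2 are highest there and FZD7 shows little spread.

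Labelled ERF KD was first compared with WT. Of the 10 genes, 6 passed the test (adjusted p under 0.05), against 10.1% of all genes tested (18.2% with the replicate letter as a block, which calls 7 of the 10). The 10 genes were chosen with earlier results of these data known, so these shares do not measure enrichment. *WNT5B*, *DKK1* and *FZD2* were higher, as were 4.01% of all genes, and *WNT7A*, *WNT7B* and *WNT10A* were lower, as were 6.07%. The median log2 difference over the 10 genes was 0.68, and 0.0058 over all genes tested. For 9 of the 10 genes the libraries of the 2 groups did not overlap, which held for 56.3% of all genes. Per transcript length, the ligand that rose was the most abundant of the 5 in WT, and the 3 that fell came next.

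*WNT7A* (chr3:13816258-13880121, minus strand), a ligand best known from limb, uterine and nervous system development, was at 7.79 and 10.7 CPM in WT and at 0.432 and 0.397 CPM in labelled ERF KD. The 2 low libraries held 9 and 8 counts, above the floor of 3 counts but few enough that the size of the change is uncertain. In labelled CIC KO it was at 7.07 and 6.11 CPM and in the codeletion at 4.19 and 3.95 CPM. Labelled ERF KD lay 21.97-fold below WT (log2 difference −4.46, SE 0.34, adjusted p = 0.000166), a difference that passed in each of the 8 fits with a library left out. The lowest library outside labelled ERF KD was at 3.95 CPM.

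*WNT7B* (chr22:45920362-45977129, minus strand), its close relative, which acts in lung, kidney and bone, gave 31.5 and 29.1 CPM in WT and 3.03 and 3.87 CPM in labelled ERF KD. It gave 18.2 and 17.7 CPM in labelled CIC KO and 10.9 and 7.73 CPM in the codeletion. The groups did not overlap for any pair, and the order from WT over labelled CIC KO and the codeletion to labelled ERF KD was the same as for *WNT7A*. Labelled ERF KD was 8.78-fold below WT (log2 difference −3.13, SE 0.24, adjusted p = 0.000164).

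*WNT10A* (chr2:218880363-218899581, plus strand), a ligand needed for teeth, hair and skin, was at 30.1 and 28.1 CPM in WT and at 2.02 and 0.944 CPM in labelled ERF KD. It was at 24.8 and 20.0 CPM in labelled CIC KO and at 34.6 and 31.6 CPM in the codeletion. Only labelled ERF KD was low, and the codeletion libraries were the highest of all 8. The difference between labelled ERF KD and WT was 19.5-fold (log2 difference −4.29, SE 0.31, adjusted p = 0.000139).

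*WNT5B* (chr12:1529891-1647243, plus strand), a ligand of the beta-catenin-independent branch, was at 79.3 and 108.7 CPM in WT and rose to 194.3 and 222.6 CPM in labelled ERF KD. Labelled CIC KO was at 74.3 and 102.9 CPM and the codeletion at 126.8 and 104.4 CPM, both overlapping WT. The rise in labelled ERF KD was 2.22-fold (log2 difference 1.15, SE 0.21, adjusted p = 0.0127). It no longer passed without WT replicate A (adjusted p = 0.1) or without labelled ERF KD replicate B (adjusted p = 0.0596), with log2 differences of 0.93 and 1.05. *WNT5A* (chr3:55465715-55490539, minus strand), the best studied ligand of the same branch, was close to the limit of detection, with 7 and 9 counts in WT, 27 and 32 in labelled ERF KD, 7 and 21 in labelled CIC KO, and 23 and 16 in the codeletion. Its log2 difference between labelled ERF KD and WT was 1.85 (SE 0.63, adjusted p = 0.109) and was 0.60 on length-scaled counts, neither of which passed.

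The order of the levels per length changed mainly in labelled ERF KD. There *WNT5B* (189.4 ± 20.8 TPM, SD, n = 2), *DKK3* (179.6 ± 57.3 TPM) and *DKK1* (169.2 ± 25.6 TPM) came first and overlapped, ahead of *FZD2* (114.3 ± 16.3 TPM), *SFRP1* (89.9 ± 0.925 TPM) and *FZD7* (24.1 ± 0.997 TPM), which did not overlap. The last 4 places were taken by *WNT7B* (1.37 ± 0.389 TPM), *WNT10A* (0.889 ± 0.548 TPM) and *WNT5A* (0.550 ± 0.297 TPM), which overlapped in turn, and by *WNT7A* (0.149 ± 0.0148 TPM) below them. In labelled CIC KO and in the codeletion *WNT7B*, *WNT7A* and *WNT5A* were the last 3, in that order and without overlap, as in WT. *WNT10A* lay next to *FZD7* in WT and in the codeletion, where it was at 22.9 ± 0.692 TPM, and was apart from it at 14.4 ± 3.66 TPM in labelled CIC KO.

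The makeup of the ligand mRNA differed accordingly between the groups. Summed over all 19 WNT genes, WT held 146.9 ± 12.9 TPM (SD, n = 2) and labelled ERF KD 208.7 ± 22.2 TPM, against 122.4 ± 7.99 TPM in labelled CIC KO and 142.7 ± 27.4 TPM in the codeletion. *WNT5B* made up 58.2% and 64.8% of this sum in WT and 90.5% and 91.0% in labelled ERF KD. *WNT10A* made up 16.2% and 11.8% in WT and 0.661% and 0.223% in labelled ERF KD. In the codeletion *WNT5B* stood at 72.4% and 68.1%, above both WT libraries and below both labelled ERF KD libraries, and *WNT10A* at 14.4% and 18.1%. In labelled CIC KO *WNT5B* stood at 60.32% and 70.65%, the latter between the 2 codeletion libraries. The share of *WNT7B* averaged 8.40% in WT, 0.648% in labelled ERF KD, 5.79% in labelled CIC KO and 2.25% in the codeletion. Shares of a sum are not independent, so that a rise of 1 ligand lowers the share of the rest.

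**Figure D2:**
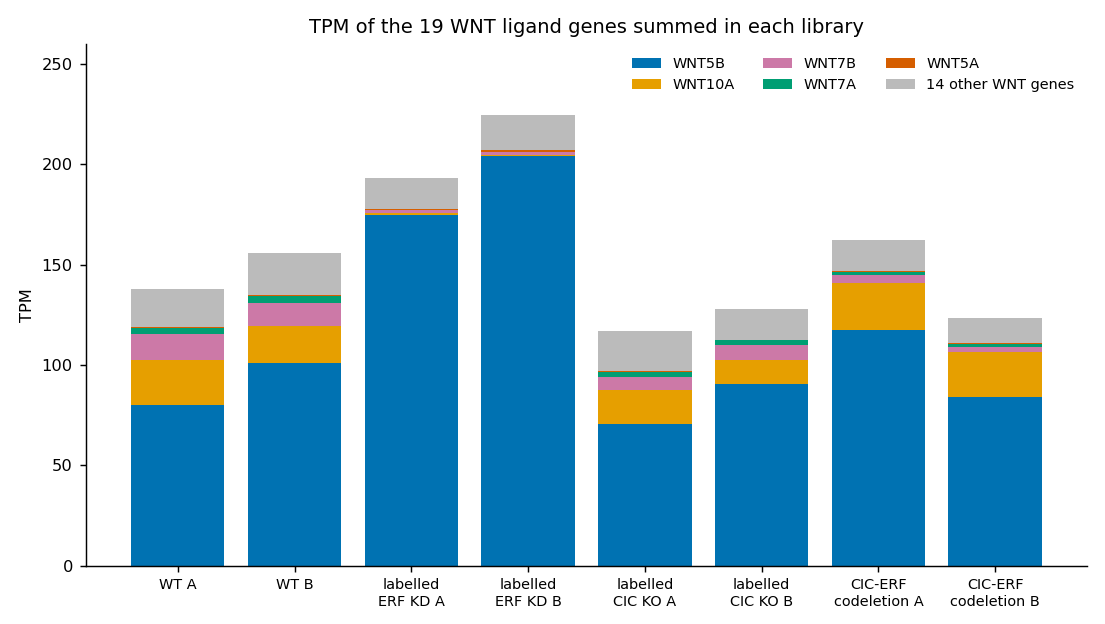
Stacked bars give TPM of the WNT ligand genes in each of the 8 libraries, coloured by gene, with the WNT genes that are not members in grey. The bars of labelled ERF KD reach 193.0 and 224.4 TPM and are almost wholly WNT5B, whereas WNT10A and WNT7B are visible in each of the other 6 bars.

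Each of these ligands other than *WNT5A* was carried mainly by 1 or 2 transcripts. WNT5B-201 held 59.9% of the *WNT5B* TPM in WT, 62.9% in labelled ERF KD, 63.0% in labelled CIC KO and 65.2% in the codeletion, and WNT5B-210 held 30.9%, 26.2%, 29.9% and 25.4%. WNT10A-201 held 75.8% of *WNT10A* in WT, 89.9% in labelled ERF KD, 81.4% in labelled CIC KO and 73.8% in the codeletion. WNT7A-201 held 90.6% to 100% of *WNT7A* in each group. WNT7B-201 held 84.6%, 86.9%, 84.7% and 100% of *WNT7B* in the 4 groups in the same order. Lesser transcripts that reached 10% in some group were WNT10A-202 (at most 20.5%, in the codeletion), WNT10A-203 (10.5%, in WT) and WNT7B-203 (14.2%, in labelled CIC KO). These are shares of group means over 2 libraries, with no test. In labelled CIC KO, WNT7B-203 held 0% in replicate A and 26.65% in replicate B, on 15.4 counts. The 90.6% of WNT7A-201 in that group came with 1 count of WNT7A-202 in replicate B. The shares in labelled ERF KD rest on few counts for the 3 ligands that fell, with 41 and 19 for WNT10A-201. The split of *WNT5A* over its transcripts rests on too few counts to be read.

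The secreted antagonists were all highest on average in labelled ERF KD. *DKK1* (chr10:52314296-52318042, plus strand), which binds LRP5 and LRP6 and keeps them from the WNT and Frizzled complex, was at 35.8 and 47.5 CPM in WT and at 99.9 and 141.8 CPM in labelled ERF KD. Labelled CIC KO was at 44.5 and 84.2 CPM, and the codeletion at 80.4 and 55.1 CPM. Both codeletion libraries and labelled CIC KO replicate B lay between WT and labelled ERF KD, and labelled CIC KO replicate A within the WT range. The rise in labelled ERF KD over WT was 2.90-fold (log2 difference 1.54, SE 0.33, adjusted p = 0.0237). It did not pass without WT replicate A (adjusted p = 0.155, log2 difference 1.34), without WT replicate B (0.0702, 1.76) or without labelled ERF KD replicate B (0.101, 1.27).

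*DKK3* (chr11:11963106-12009769, minus strand) is the most divergent Dickkopf protein, and its part in WNT signalling is less settled. It was at 139.7 and 109.2 CPM in WT and at 301.3 and 178.5 CPM in labelled ERF KD. It was at 147.6 and 79.8 CPM in labelled CIC KO and at 113.2 and 84.1 CPM in the codeletion. Replicate A was above replicate B in all 4 groups. The log2 difference between labelled ERF KD and WT was 0.95 (SE 0.34, adjusted p = 0.123) and did not pass, whereas with the replicate letter as a block it was 0.91 and passed (adjusted p = 0.00358), as it did with DESeq2 (adjusted p = 0.0234).

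*SFRP1* (chr8:41261958-41309497, minus strand) carries a Frizzled-like cysteine-rich domain that binds WNT proteins outside the cell. It was at 195.9 and 217.8 CPM in WT, at 270.2 and 281.2 CPM in labelled ERF KD, at 164.2 and 149.8 CPM in labelled CIC KO, and at 254.2 and 174.2 CPM in the codeletion. Labelled ERF KD lay above every other library and labelled CIC KO below every other library. Neither difference from WT passed the test (log2 difference 0.41, SE 0.18, adjusted p = 0.205 for labelled ERF KD, and −0.40, SE 0.18, adjusted p = 1.0 for labelled CIC KO).

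*DKK1*, *DKK3* and *SFRP1* each had 1 main coding transcript in every group. DKK1-201 held 61.8% of the *DKK1* TPM in WT, 61.1% in labelled ERF KD, 67.4% in labelled CIC KO and 63.3% in the codeletion, and most of the rest was in DKK1-203, annotated as a processed transcript without a coding frame (22.6% to 27.3%). DKK3-201 held 61.6% to 66.9% of *DKK3*, with 10.8% to 15.1% in the non-coding DKK3-212, and SFRP1-201 held 95.6% to 98.0% of *SFRP1*. All of these are shares of group means. In single libraries the share of DKK3-212 ran from 1.69% in WT replicate B to 23.3% in WT replicate A. *FZD2* and *FZD7* have 1 transcript each in the annotation. The higher *DKK1* level in labelled ERF KD thus came with much the same split over transcripts as in WT, as a description with no test.

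The receptors *FZD2* (chr17:44557459-44559570, plus strand) and *FZD7* (chr2:202034587-202038445, plus strand) belong to the same Frizzled subgroup and share the run of 69 bases shown above. *FZD2* was at 74.8 and 72.6 CPM in WT and at 165.0 and 141.7 CPM in labelled ERF KD. It was at 71.0 and 67.0 CPM in labelled CIC KO and at 84.7 and 81.8 CPM in the codeletion. Labelled ERF KD was 2.08-fold above WT (log2 difference 1.06, SE 0.13, adjusted p = 0.00161), and the difference passed in each of the 8 fits with a library left out.

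*FZD7* gave 51.2 and 67.2 CPM in WT, 60.7 and 68.0 CPM in labelled ERF KD, 47.4 and 58.8 CPM in labelled CIC KO, and 58.8 and 60.4 CPM in the codeletion. Its group means lay between 53.1 and 64.3 CPM, and labelled ERF KD overlapped WT. The log2 difference between labelled ERF KD and WT was 0.12 (SE 0.17, adjusted p = 0.721), within the spread between replicates. Whether the change of *FZD2* differed from that of *FZD7* was not tested.

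Labelled CIC KO was compared with WT in the same fit, and the comparison shares its WT libraries with the one above. None of the 10 genes passed the edgeR test, against 0.00% of all genes tested. *ERF* was not called either, at 55.9 and 55.9 CPM in WT and 18.8 and 11.7 CPM in labelled CIC KO. A missing call in this comparison is thus no evidence of an unchanged level. At an unadjusted p under 0.05 there was 1 member, *WNT7B*, and 587 genes in all, and DESeq2 called no member either. The median log2 difference was −0.14 for the 10 genes and 0.012 for all genes. The libraries of the 2 groups did not overlap for 5 members, as for 32.2% of all genes. *WNT7B* was 1.69-fold below WT (log2 difference −0.76, SE 0.21, unadjusted p = 0.0068, adjusted p = 1.0). The differences of *WNT7A*, *WNT10A*, *SFRP1* and *FZD2*, whose libraries also lay apart from WT, were −0.49, −0.38, −0.40 and −0.10 on the log2 scale. Among the members whose libraries overlapped WT, *WNT5A* (0.75, on few counts) and *DKK1* (0.63) were higher on average. *WNT5B* (−0.086), *DKK3* (−0.13) and *FZD7* (−0.16) were lower on average.

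The codeletion was compared with the same WT libraries. None of the 10 genes passed, against 0.0682% of all genes tested. With the replicate block 1 member and 2.49% of all genes did, and with DESeq2 2 members, for which no share of all genes was counted. At an unadjusted p under 0.05 edgeR gave 2 members, *WNT7B* and *WNT7A*, and 1950 of the 14653 genes tested. *WNT7B* was 3.25-fold below WT (log2 difference −1.70, SE 0.22, adjusted p = 0.0549), and the block took it past the threshold (−1.70, adjusted p = 0.0139). A fit of only the groups compared, which leaves out the libraries labelled ERF KD, gave an adjusted p of 0.0674. *WNT7A* was 2.27-fold below WT (log2 difference −1.18, SE 0.27, adjusted p = 0.13, and 0.0487 with DESeq2). Both codeletion libraries were below both WT libraries for these 2 genes.

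Of the other members in the codeletion, *WNT5A* differed from WT by 1.24 (SE 0.64, adjusted p = 0.442), on few counts. *WNT10A* differed by 0.18, *WNT5B* by 0.30, *FZD2* by 0.18, *SFRP1* by 0.05 and *FZD7* by 0.01 on the log2 scale. *DKK1* was 0.70 higher (SE 0.33, adjusted p = 0.4) and *DKK3* 0.33 lower (log2 difference −0.33, SE 0.34, adjusted p = 0.694). The median over the 10 genes was 0.11, against 0.00184 over all genes tested. Libraries did not overlap for 6 members, as for 49.5% of all genes.

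**Figure D3:**
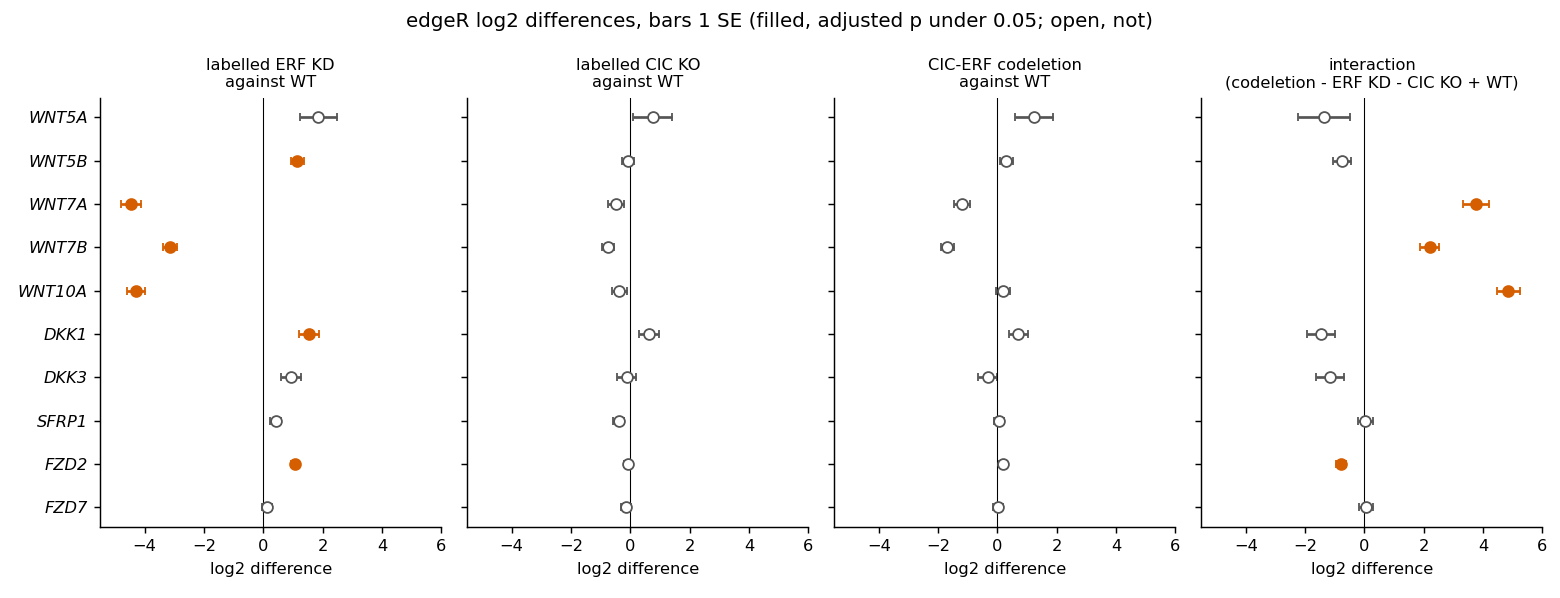
Points give the edgeR log2 difference of each gene, with bars of 1 SE, for each line against WT and for the interaction term, and filled points passed at an adjusted p under 0.05. Filled points appear for 6 genes in labelled ERF KD, for none in labelled CIC KO or the codeletion, and for 4 genes in the interaction, where WNT10A lies at 4.85, WNT7A at 3.76, WNT7B at 2.19 and FZD2 at −0.79.

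The codeletion differed from labelled ERF KD at 6 of the 10 genes, against 11.7% of all genes tested. Of these, 3 were higher and 3 lower, as were 6.04% and 5.62% of all genes. *WNT10A* was 22.2-fold higher in the codeletion (log2 difference 4.47, SE 0.31, adjusted p = 0.000113), *WNT7A* 9.68-fold higher (3.28, SE 0.34, adjusted p = 0.000735) and *WNT7B* 2.70-fold higher (1.43, SE 0.23, adjusted p = 0.00612). *FZD2* was 1.84-fold lower (−0.88, SE 0.13, adjusted p = 0.00353), *WNT5B* 1.80-fold lower (−0.85, SE 0.21, adjusted p = 0.0376) and *DKK3* 2.43-fold lower (−1.28, SE 0.34, adjusted p = 0.0462). The libraries of the 2 groups overlapped for none of the 10 genes, and did not overlap for 53.4% of all genes. *DKK1* (−0.83), *WNT5A* (−0.62), *SFRP1* (−0.36) and *FZD7* (−0.11) did not pass.

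The lower *WNT5B* and *DKK3* calls of this comparison were each lost when certain libraries were left out. *WNT5B* did not pass without either labelled ERF KD library (adjusted p = 0.0702 without A and 0.142 without B) or either codeletion library (0.101 and 0.18). *DKK3* did not pass without WT replicate A (0.062) or B (0.0616), labelled ERF KD replicate A (0.201) or codeletion replicate A (0.128) or B (0.208), with log2 differences of −1.28, −1.28, −0.86, −1.51 and −1.08. *DKK3* was also lost with length-scaled counts (adjusted p = 0.0555), log2(TPM + 1) (0.0944) and log2(TPM + 0.1) (0.0899, the last 2 with limma). *WNT10A*, *WNT7A*, *WNT7B* and *FZD2* passed in all 8 fits with a library left out, but the 2 limma fits did not call *WNT7B* (0.83, adjusted p = 0.107 on log2(TPM + 1), and 1.18, adjusted p = 0.0805 on log2(TPM + 0.1)). Against labelled CIC KO, none of the 10 genes passed with edgeR (0.00% of all genes), and the libraries did not overlap for 6 (36.0% of all genes). An unadjusted p under 0.05 was found for 3 members and for 1216 of the 14653 genes tested. DESeq2 called 1 member, *WNT7B*, which was among these 3 (log2 difference −0.94, SE 0.22, adjusted p = 0.318 with edgeR and 0.0422 with DESeq2). The other 2 were *WNT7A* (−0.69, SE 0.27, adjusted p = 0.574) and *SFRP1* (0.45, SE 0.18, adjusted p = 0.578). The ligands *WNT7A* and *WNT7B* were thus lower on average and *WNT10A* higher (0.56, SE 0.25, adjusted p = 0.607) in the codeletion than in labelled CIC KO, in both libraries of each, without passing. The remaining log2 differences were 0.49 for *WNT5A*, 0.38 for *WNT5B*, 0.27 for *FZD2*, 0.17 for *FZD7*, 0.08 for *DKK1* and −0.20 for *DKK3*.

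The interaction term asks whether the codeletion departs from the sum of the single-loss changes. It adds the single losses together, so its value is the same if their labels are exchanged. It passed for 4 of the 10 genes, against 4.15% of all genes tested (2.67% positive and 1.48% negative), with a median of −0.37 for the 10 genes and −0.00423 for all. The term was positive for *WNT10A* (4.85, SE 0.40, adjusted p = 0.000645), *WNT7A* (3.76, SE 0.43, adjusted p = 0.00292) and *WNT7B* (2.19, SE 0.31, adjusted p = 0.00799), which means that they stood higher in the codeletion than the single-loss changes add up to. *WNT7A* and *WNT7B* were still below WT there, whereas *WNT10A* was not (log2 difference 0.18). With limma the *WNT7B* term did not pass on log2(TPM + 1) (1.54, adjusted p = 0.0921) or log2(TPM + 0.1) (1.96, adjusted p = 0.0966), nor did that of *WNT7A* on log2(TPM + 1) (1.37, adjusted p = 0.0603). It was negative for *FZD2* (−0.79, SE 0.18, adjusted p = 0.0488), and this call was lost in each of the 8 fits with a library left out, with an adjusted p between 0.0553 and 0.195, with length-scaled counts (0.0821) and with both limma fits (0.142 in each). *DKK1* did not pass with edgeR (adjusted p = 0.145) but did with DESeq2 (−1.46, adjusted p = 0.0187). With the replicate block *DKK3* passed as well (−1.07, adjusted p = 0.0146, against −1.15 and 0.258 without it), as did 9.55% of all genes. The term was −1.36 for *WNT5A*, −0.76 for *WNT5B*, 0.03 for *SFRP1* and 0.05 for *FZD7*. Of these only *WNT5B* passed in any setting, with edgeR without the filter on low counts (adjusted p = 0.0337).

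The rest of the pathway was read from 9 lists of 93 genes, of which 67 were tested. The lists were chosen with earlier results of these data known, so the shares below do not measure enrichment. In labelled ERF KD against WT, 4 were higher and 10 lower, 20.9% of those tested against 10.1% of all genes, with a median log2 difference of 0.00105. None passed in labelled CIC KO or in the codeletion against WT, where with the replicate block 1 of the 67 was lower, *FZD10* (−2.30, adjusted p = 0.0474). In the codeletion against labelled ERF KD, 13 were higher and 4 lower (25.4%, against 11.7% of all genes), and with the block 15 and 11 (38.8%, against 20.6%). In the interaction 5 were higher and 1 lower (8.96%, against 4.15%), and with the block 9 and 5 (20.9%, against 9.55%). Of the 16 intracellular components, all tested, 1 passed in labelled ERF KD against WT, with a list median of 0.0359.

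Among the 14 other ligands 7 were tested and 2 passed in labelled ERF KD against WT, both lower. With the replicate block 1 more passed, *WNT3* (0.74, adjusted p = 0.0194), named here after its values were seen. *WNT9A* went from 4.84 and 5.81 CPM in WT to 1.201 and 1.738 CPM (log2 difference −1.86, SE 0.32, adjusted p = 0.00877). *WNT11*, known from gastrulation movements, went from 5.27 and 5.40 to 1.39 and 1.04 CPM (−2.13, SE 0.31, adjusted p = 0.00434). Neither had a library in labelled ERF KD within the range of WT.

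All 8 other Frizzled receptors were tested, and 1 was higher and 2 lower. *FZD4*, which also serves as the receptor of norrin in blood vessels, rose from 53.9 and 52.2 to 124.5 and 106.3 CPM (log2 difference 1.12, SE 0.19, adjusted p = 0.00802), close in size to *FZD2*. *FZD6*, a receptor tied to hair patterning and planar polarity, fell from 20.2 and 18.0 to 5.76 and 3.83 CPM (−1.99, SE 0.33, adjusted p = 0.00708). *FZD10* was at 2.28 and 3.98 CPM in WT and at 0.0961 and 0.0497 CPM in labelled ERF KD (adjusted p = 0.00212), below the level of 3 counts, 0.165 CPM at the lowest depth, so that no fold is given.

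Of 6 co-receptors tested 3 passed, all lower in labelled ERF KD. The pseudokinase *PTK7* was at 108.5 and 93.3 CPM in WT and 51.8 and 32.4 CPM in labelled ERF KD (−1.26, adjusted p = 0.0117). The glypican *GPC4* (−0.80, adjusted p = 0.0283) and *LRP5*, the target of DKK1 (−0.62, adjusted p = 0.045), differed by less. Of the 11 other secreted antagonists only 2 had enough counts, and *IGFBP4*, an IGF-binding protein that can also block LRP6, rose from 97.0 and 103.8 to 551.3 and 570.3 CPM (2.48, SE 0.17, adjusted p = 0.000116). Among the tested genes of the R-spondin axis (5) and of the beta-catenin targets (10), the receptor *LGR5*, which stands in both lists, was lower (adjusted p = 0.0409). It was at 1.66 and 0.663 CPM in WT and at 0 and 0.0497 CPM in labelled ERF KD, so that no fold is given.

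The remaining calls were *TRABD2A*, a membrane protease that inactivates WNT proteins (0.98, adjusted p = 0.0166), *APC*, a scaffold of the complex that degrades beta-catenin (0.82, adjusted p = 0.0232), and the polarity genes *CELSR1* (−1.72, adjusted p = 0.0023) and *VANGL1* (−0.52, adjusted p = 0.0424). With the replicate block 5 of the 11 polarity genes tested passed instead of 2, and 2 instead of 1 of the 5 genes of ligand secretion and antagonist receptors. *AXIN2*, a feedback target of beta-catenin, stayed between 0 and 0.721 CPM in all libraries, too low to be read as a measure of the pathway.

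**Figure D4:**
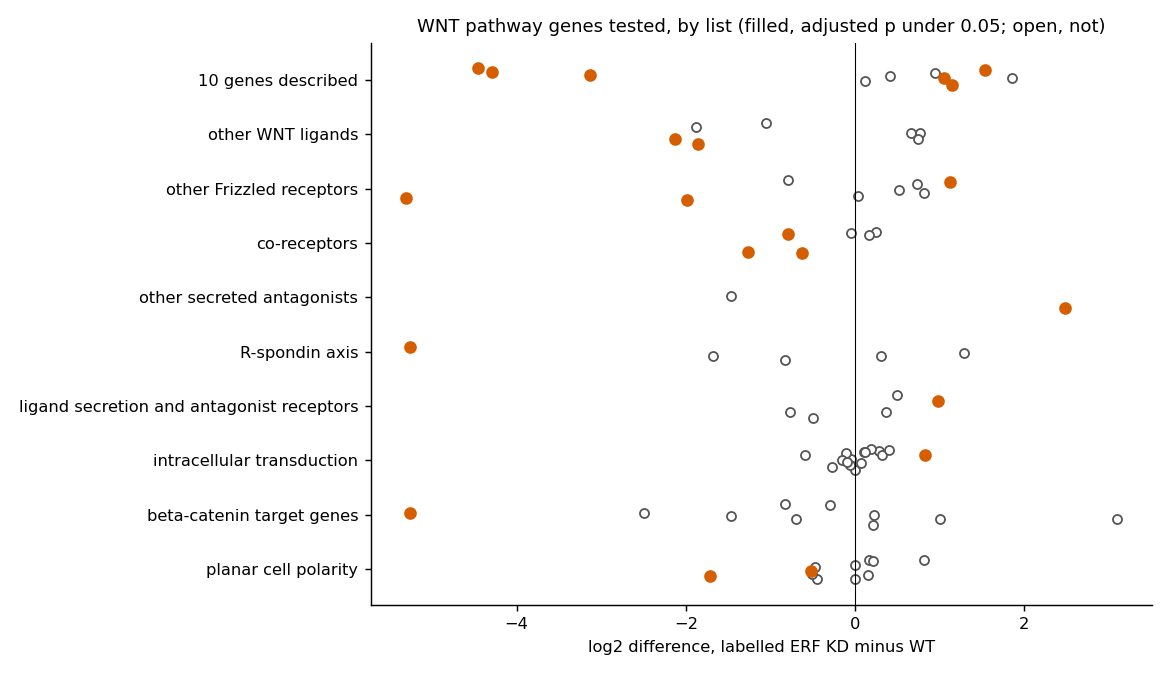
Each point is the log2 difference between labelled ERF KD and WT of 1 tested gene, in rows by list (spread vertically for legibility), with filled points for an adjusted p under 0.05. Filled points lie on both sides of 0 among the 10 genes and the Frizzled receptors, only on the lower side among other ligands and co-receptors, and the intracellular genes cluster near 0 with APC as the filled point.

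The genes whose pattern over the 8 libraries was most like that of each member were sought among 13831 protein-coding genes, by the root mean square difference of centred log2 CPM. *DKK1* was nearest to *WNT5A* (0.249), with *DPYSL3* (0.28) and *ADM* (0.284) close behind, a ranking that rests on few *WNT5A* counts. *ADM*, which encodes the vasodilator adrenomedullin, was nearest to *DKK1* (0.175). *UPK2*, a uroplakin of the urothelium, was nearest to *WNT7A* (0.267), with means of 5.57 CPM in WT, 0.270 in labelled ERF KD, 4.05 in labelled CIC KO and 2.92 in the codeletion. The sodium channel subunit *SCNN1G* was nearest to *WNT7B* (0.236) and *TCHHL1* to *WNT10A* (0.297), both under 3 CPM on average in every group. *NTN4*, a secreted netrin, was nearest to *DKK3* (0.155), with 105.2, 207.7, 93.2 and 94.6 CPM in the 4 groups in the same order. *MAMLD1* was nearest to *WNT5B* (0.133), *SP4* to *SFRP1* (0.109), *NUCB2* to *FZD2* (0.0946) and *THOC5* to *FZD7* (0.065). A smaller distance is easier to reach for a gene that varies little, as *FZD7* does (range of 0.519 on the log2 scale, against 5.06 for *WNT10A*), and likeness over 8 libraries in 4 groups says nothing of shared control.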

How the data were processed

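RNA of PNT2 cells was extracted with a column kit and sequenced by a company, in 8 libraries of 4 labelled groups. The authors deposited, for each library, estimated counts per transcript, not normalised, and TPM, in kallisto's format. The paper's methods name RSEM, and the submitters' notes name build hg19. Kallisto's version and annotation and the strandedness are not given in the sources used here.

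Each table lists 180253 transcripts, of which 153245 (85.02%) were matched by identifier to GENCODE release 29. Estimated counts were added up per gene, rounded, scaled (TMM) and, after filterByExpr, tested by the quasi-likelihood method of edgeR 4.0.16 in R 4.3.3, in 1 fit of 4 groups with Benjamini-Hochberg adjustment over 14653 genes. CPM are from the same scaling. Alternatives used DESeq2 1.42.0, limma 3.58.1 on log2(TPM + 1) and log2(TPM + 0.1), length-scaled counts, no filter, a replicate block, only the groups compared, an adjusted p of 0.1, and each library left out. The test was checked on simulated counts.

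The members and gene lists were chosen with earlier results of these data known. All members are named in each comparison, and of the other lists the genes with an adjusted p under 0.05 against WT, at most 4 a list. Transcripts are named from 10% of a gene's TPM in any group, other than those of *WNT5A*. *TCF7*, *CTNNB1* and others past the threshold only in other comparisons are counted and not described.

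Replicates differed by more than sampling noise (chi-square over its degrees of freedom 21.5 to 43.1). The letters may pair libraries, because the A minus B differences correlated across genes in each of the 6 pairs of groups (0.136 to 0.335). The fit behind the calls did not use the letters, and the replicate block, which does, was run as an alternative. The biological coefficient of variation was 0.197, and 0.142 with the block. With 2 libraries a group no exact permutation p can be under 0.333, and none is given. The floor of 3 counts covers counting error only, whereas each SE comes from the edgeR test and includes its estimate of the spread between replicates.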

Additional observations from a re-analysis of the deposited data

Results flagged for a closer look

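The interaction term, the departure of the codeletion from the sum of the single-loss changes on the log2 scale, passed an adjusted p of 0.05 (edgeR) for 4 of the 10 genes. Such a term describes the 4 labelled groups, and whether it comes from the losses themselves was not tested. The terms were 3.76 for *WNT7A*, 2.19 for *WNT7B*, 4.85 for *WNT10A* and −0.79 for *FZD2*. All 4 rest on the libraries labelled ERF KD, which stood apart from the rest in their epithelial and mesenchymal markers, and the part of this in the terms was not tested. The term of *FZD2* did not pass once any 1 library was left out, and on log2(TPM + 1) limma called none of the terms of *FZD2*, *WNT7A* and *WNT7B*.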

How the results depend on the processing

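Over the 10 genes, 15 alternatives and 6 comparisons, 889 log2 differences were computed, of which 808 kept sign and side of the threshold, 33 fell short of it, 17 came past it and 31 changed sign, none of the latter for a gene that had passed. The number of members past the threshold in the codeletion against WT was 0, and became 1 at an adjusted p under 0.1, 2 with DESeq2, 3 without the filter and 1 with the replicate block. Against labelled CIC KO it went from 0 to 1 with DESeq2 and without the filter. In the interaction it went from 4 to 7 without the filter, 1 with log2(TPM + 1) and 2 with log2(TPM + 0.1). The share of all genes that passed was counted only for edgeR without and with the replicate block, so the other counts have no such share beside them. The cause of these moves was not tested. With each library left out the count ran from 4 to 6 in labelled ERF KD against WT and in the codeletion against labelled ERF KD, stayed at 0 in the other 3 comparisons and was 3 in the interaction. The replicate block changed no call of a member other than *DKK3* and *WNT7B*.

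Signs changed for *WNT5A* in labelled CIC KO against WT (−0.23 on length-scaled counts, −0.052 with log2(TPM + 1) and −0.10 with log2(TPM + 0.1)) and in the interaction (0.16, 0.032 and 0.10 in the same 3 settings). In the codeletion against WT they changed for *SFRP1* (−0.0038 and −0.0043 with the 2 TPM settings) and *FZD7* (−0.016 and −0.016). With each library left out, log2 differences ran across 0 for *FZD7* in labelled ERF KD against WT (−0.068 to 0.33). In labelled CIC KO against WT they did so for *WNT5A* (−0.28 to 1.34), *WNT5B* (−0.34 to 0.16), *DKK3* (−0.64 to 0.24) and *FZD7* (−0.34 to 0.055), in the codeletion against WT for *SFRP1* (−0.25 to 0.30) and *FZD7* (−0.17 to 0.22), in the codeletion against labelled CIC KO for *WNT5A* (−0.11 to 1.52), *DKK1* (−0.31 to 0.61) and *DKK3* (−0.58 to 0.31), and in the interaction for *SFRP1* (−0.26 to 0.28) and *FZD7* (−0.16 to 0.24). With 2 libraries a group the spread is poorly known, and depth limits *WNT5A*, at 32 counts or fewer, and *WNT7A* in labelled ERF KD, at 9 or fewer.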
